A study of Drosophila melanogaster with 3 samples.

Results

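The 44 Drosophila melanogaster genes described here encode translation initiation factors. They are the protein-coding genes whose symbol begins with eIF followed by a digit from 1 to 6 in the Ensembl annotation of the dm6 genome, 44 of 13986 protein-coding genes in all. Binding of the product of the gene CG7368 near them was read from peak lists of chromatin immunoprecipitation followed by sequencing (ChIP-seq). All 3 libraries, which are biological replicates, belong to 1 group: whole prepupae, male and female pooled and of unknown age, from a transgenic line that stably carries CG7368 with GFP at its C terminus, precipitated with an antibody against GFP. The sources used here do not name the regulatory sequence that drives the fusion, and a whole-animal sample mixes all cell types. There is no second condition, so every value below describes the same group, and the control experiment named in the labels was not analysed here.

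Initiation factors bring the small ribosomal subunit, the initiator tRNA and the mRNA together and then let the large subunit join. eIF2 carries the initiator tRNA, eIF2B reloads eIF2 with GTP, the large eIF3 complex sits on the small subunit, and the eIF4 factors bind the mRNA cap and unwind the leader. Their genes are expressed in nearly all cells, although several fly eIF4E and eIF3 genes are duplicates whose transcripts are found mainly in the testis.

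A summit is the highest point of a region, and it was called a promoter summit where an annotated start of transcription (TSS) of the gene lay no more than 500 bp away. Summits inside a gene but farther from each of its TSSs were called gene body summits. The optimal list holds the 5246 regions that the authors retained by ranking agreement between replicates (the irreproducible discovery rate, IDR). The pooled list and each replicate list hold 30000 regions. Signal is the authors' own value for a region, it is given only within a list, and rank 1 is the highest signal. The 5246 optimal regions were also the 5246 highest of the pooled list, so ranks in the optimal and pooled lists are the same. A retained region need not rank high in each replicate. The number of reads is unknown.

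The stretches under 3 of the summits described below are shown first, so that the letters can be read beside the values. Each runs 5′ to 3′ on the strand of the gene and is dm6 sequence from RefSeq with the summit at position 51 of 101 bases. Capitals mark a match to TATAAA or TAATTA in the eIF4EHP stretch, where TAATTA overlaps TTTATA, the reverse complement of TATAAA, and to GTGTGTG, the reverse complement of CACACAC, in the eIF3h stretch. The eIF2beta stretch held none of the motifs searched. The positions are chr3R:24109134-24109234 for eIF4EHP, chr2L:5052459-5052559 for eIF3h and chr3L:12526974-12527074 for eIF2beta, all on the minus strand.
eIF4EHP: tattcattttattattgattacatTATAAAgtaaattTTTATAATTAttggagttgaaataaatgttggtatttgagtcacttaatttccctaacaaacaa
eIF3h: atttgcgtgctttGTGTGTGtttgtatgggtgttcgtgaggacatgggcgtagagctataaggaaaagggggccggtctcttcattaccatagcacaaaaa
eIF2beta: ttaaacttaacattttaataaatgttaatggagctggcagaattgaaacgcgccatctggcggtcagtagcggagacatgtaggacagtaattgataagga
The eIF4EHP stretch, between divergent genes, was 80.2% A or T. The eIF2beta stretch was 60.4% A or T and the eIF3h stretch, which lies in an intron, was 53.5%.

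Of the 44 genes, 7 (15.9%) had an optimal promoter summit: eIF6, eIF4EHP, eIF3h, eIF5B, eIF4A, eIF2A and eIF2beta. Among all protein-coding genes the share was 14.9%, so the initiation factor genes stood near the background. Counting only optimal regions that overlap the 5246 highest of both kept replicates gave 6 genes without replicate 1 and 4 without replicate 2 or without replicate 3, against 11.7%, 11% and 11.1% of all protein-coding genes. In the longer pooled list 15 of the 44 (34.1%) had a promoter summit, against 36% of all protein-coding genes. The added genes were eIF1, eIF2D, eIF4H1, eIF4G2, eIF1A, eIF2Bgamma, eIF4E1 and eIF2Bdelta. A further 9 genes (20.5%) had a promoter summit in at least 1 replicate list but not in the pooled list, against 18.3% of all protein-coding genes. Regions in the gene body alone were found at 2 genes (4.55%, against 7.43%), and 18 genes (40.9%, against 38.3%) had no region in any of the 5 lists, so these shares too stood near the background.

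**Figure D1:**
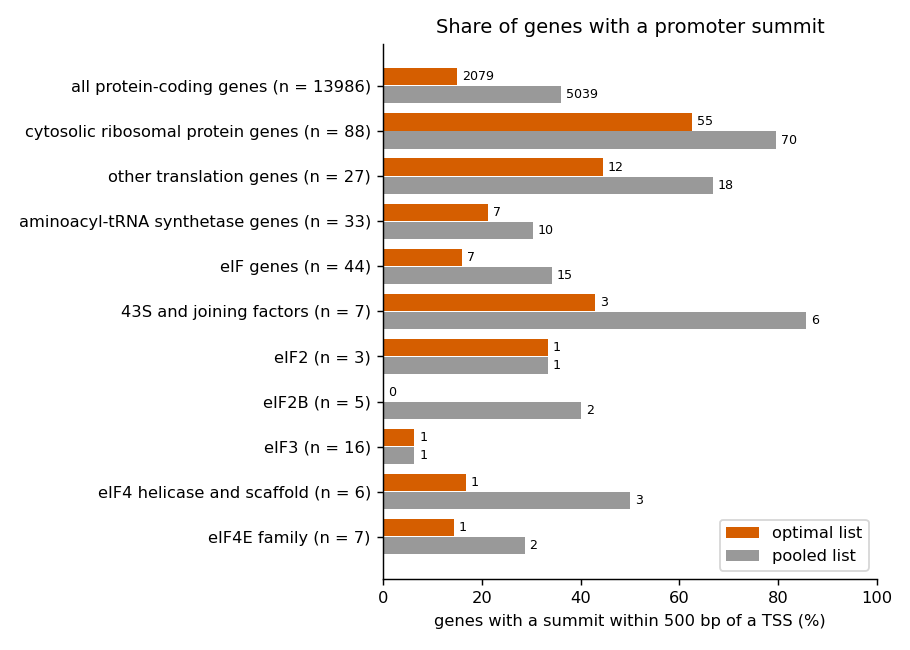
Share of genes (x axis, %) with a summit within 500 bp of a TSS in the optimal list (orange) and the pooled list (grey), with the number of genes at the end of each bar. The bar for the initiation factor genes (15.9% optimal) lies beside that of all protein-coding genes (14.9%), while the bar for cytosolic ribosomal protein genes reaches 62.5%; the 6 lowest pairs of bars are groups of 3 to 16 initiation factor genes.

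Other genes of the translation machinery were counted in the same way, and the shares were not tested against each other. Among all protein-coding genes the share was 14.9% in the optimal and 36% in the pooled list. Of 88 genes for cytosolic ribosomal proteins, 55 (62.5%) had a promoter summit in the optimal list and 70 (79.5%) in the pooled list. Of 33 aminoacyl-tRNA synthetase genes, which encode the enzymes that load tRNAs, 7 (21.2%) had an optimal and 10 (30.3%) a pooled promoter summit. These 33 were taken by unhyphenated symbols ending in RS, with or without the suffix -m. They include PheRS-m but no other PheRS gene, so the class may be incomplete. A list of 27 other translation genes was made of elongation and release factors, cap-complex regulators and kinases. It was chosen with earlier results of these data known. In it, 12 genes (44.4%) had an optimal and 18 (66.7%) a pooled promoter summit. The highest of these 12 was larp, an RNA-binding protein gene, with signal 1825 at rank 6. Below it came the poly(A)-binding protein gene pAbp at rank 528, with its summit 499 bp from the TSS, just inside the window. The elongation factor genes eEF1gamma, eEF1alpha1, eEF2 and eEF5 stood at ranks 659, 1701, 4017 and 4367. The release factor genes eRF3 and eRF1 stood at ranks 2690 and 3197. eRF3 had 2 optimal summits, the one at rank 2690 nearest to the TSS of SC35 and the other, at rank 4361, nearest to its own. Regulators completed the list: crc (the fly ATF4) at rank 2233, the kinase gene Lk6 at rank 2773, Thor (the fly 4E-BP) at rank 3459 and the helicase gene bel at rank 4749.

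By role, factors of the pre-initiation complex and of subunit joining (eIF1, eIF1A, eIF2A, eIF2D, eIF5, eIF5B and eIF6) had an optimal promoter summit at 3 of 7 genes and a pooled one at 6 of 7. The eIF2 subunit genes had 1 of 3 in either list and the eIF2B subunit genes 0 of 5 optimal and 2 of 5 pooled. The largest family, eIF3, had 1 of 16 in either list. Among the helicase and scaffold genes eIF4A, eIF4B, eIF4G1, eIF4G2, eIF4H1 and eIF4H2 it was 1 of 6 optimal and 3 of 6 pooled, and in the cap-binding eIF4E family 1 of 7 optimal and 2 of 7 pooled. Over all protein-coding genes the share was 14.9% in the optimal and 36% in the pooled list. These role groups are too small for their shares to be ordered.

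eIF6, which keeps the large ribosomal subunit from joining too early, had the highest signal of the 44 genes. Its optimal region on arm 2R (23850246 to 23850554) had signal 1042 at rank 52, with the summit 104 bp upstream of the TSS. Replicates 1, 2 and 3 ranked it 59, 56 and 49, with summits 94, 90 and 82 bp upstream. The 3 replicates thus placed the region at nearly the same height in their lists. A non-coding antisense RNA, asRNA:CR45928, has the nearest TSS at 75 bp, so the region cannot be given to eIF6 alone.

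eIF4EHP encodes a cap-binding protein that competes with eIF4E and represses translation of bound mRNAs. The region on arm 3R (24108968 to 24109386) had signal 783 at rank 108, and its summit, in the AT-rich stretch printed above, was 224 bp upstream. Its ranks in replicates 1, 2 and 3 were 113, 106 and 107, a spread of a few places. The divergent gene CG18428 starts 376 bp away and its TSS was nearer to the summit, at 152 bp. Across lists the nearest TSS changed. In replicate 1 the highest summit was 165 bp from eIF4EHP and nearest to it. Replicate 1 also had a weaker region at rank 1210, with its summit 9 bp from CG18428 and 367 bp from eIF4EHP. In replicates 2 and 3 the highest summit was 192 and 248 bp from eIF4EHP and nearest to CG18428.

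eIF3h encodes a subunit of eIF3 and was the only eIF3 gene with a promoter summit in the optimal or pooled list. It had 2 neighbouring optimal regions on arm 2L. The higher (5052351 to 5052558) had signal 326 at rank 894, with its summit in an intron 271 bp downstream of a TSS, and the lower (5052552 to 5052967) had signal 194 at rank 2135, with its summit 20 bp downstream in the 5′ UTR. The best ranks were 1718, 1307 and 500 in the replicates in that order, so the gene was among the highest 5246 in each. Replicate 1 had a single region that overlapped both. A TSS of senju lies within 500 bp of both summits.

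The other 4 optimal promoter summits lay in the lower part of the list, whose lowest signal was 104. eIF5B, the GTPase that joins the subunits, had signal 140 at rank 3478 on arm 3L (3460556 to 3460971), 161 bp upstream of a TSS and within the 5′ UTR of a longer transcript. Its ranks were 5390, 3360 and 3621 in replicates 1, 2 and 3, so replicate 1 was just outside its 5246 highest. eIF4A, the RNA helicase of the cap complex, had signal 125 at rank 4031 on arm 2L (5982393 to 5982808), 7 bp downstream of an internal TSS.

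For eIF4A the replicate ranks were 2923, 5224 and 3220, all inside the highest 5246. The TSS farthest upstream had a weaker pooled region of its own at rank 12177, with signal 53.0 and a summit 3 bp downstream. eIF2A, an initiation factor that is distinct from the eIF2 complex, had signal 114 at rank 4607 on arm 3L (21824698 to 21825113), 59 bp upstream of a TSS and in the 5′ UTR of a longer transcript. It ranked 4564 in replicate 2 and 3507 in replicate 3 and had no promoter region in replicate 1.

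eIF2beta, a subunit of the tRNA carrier eIF2, had the lowest optimal signal of the 7, 109 at rank 4916 on arm 3L (12526816 to 12527231). Its ranks were 18133, 5948 and 4292, so 1 replicate placed it among its highest 5246 and replicate 1 far below. The position was steadier than the rank, with summits 296, 288 and 284 bp upstream in replicates 1, 2 and 3, at the stretch printed above. The other subunit genes eIF2alpha and eIF2gamma had no optimal or pooled region.

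**Figure D2:**
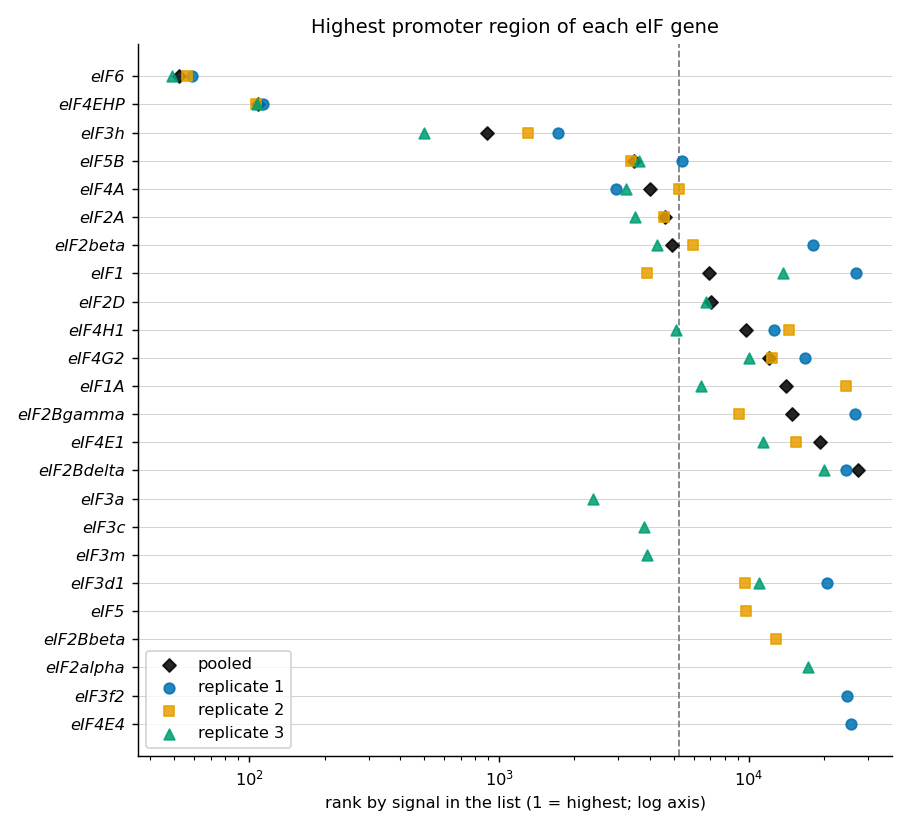
Rank by signal of the highest promoter region (x axis, log scale, 1 is the highest) for the 24 genes with a promoter region in the pooled list or a replicate list. Black diamonds are the pooled list, coloured symbols the 3 replicates, and the dashed line is rank 5246; eIF6 and eIF4EHP keep nearly the same rank in all 4 lists, while eIF3a, eIF3c and eIF3m appear in replicate 3 alone.

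The replicates differed in how many of these genes they held. Among the 5246 highest regions, a promoter summit was found at 4 of 44 genes (9.09%) for replicate 1, at 7 (15.9%) for replicate 2 and at 11 (25%) for replicate 3. The shares over all protein-coding genes were 15.2%, 15.7% and 16.2%. The mean over replicates was 16.7% ± 7.98 (SD, n = 3) for the initiation factor genes and 15.7% ± 0.505 (SD, n = 3) for all genes, so the difference was smaller than the spread between replicates. With 3 replicates an exact sign-flip test cannot go below p = 0.25, and none was made. eIF3h, eIF4A, eIF4EHP and eIF6 were in the highest regions of each replicate, and replicate 3 alone held eIF3a, eIF3c, eIF3m, eIF2beta and eIF4H1.

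Just below the optimal list stood eIF1, which helps select the start codon, at pooled rank 6914 with signal 84.3 and a summit 99 bp upstream. Replicates 1, 2 and 3 ranked it 26784, 3890 and 13669, and the ribosomal protein gene RpL28 has a TSS in the same window. eIF2D, which in mammals can deliver tRNA without GTP, had rank 7026 with signal 83.2 and a summit 30 bp upstream, and its promoter region was found in replicate 3 alone, at rank 6711. The next was eIF4H1, a helicase cofactor, at pooled rank 9749 with signal 63.4 and ranks of 12542, 14442 and 5092 in replicates 1, 2 and 3, so replicate 3 alone had it among its highest 5246.

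The remaining 5 pooled promoter summits were weaker. eIF4G2 stood at rank 12076 (signal 53.3, 10 bp downstream), and it shares this TSS with CG33111. eIF1A, which works with eIF1 in scanning, stood at rank 14028 (signal 46.9, 197 bp upstream), nearest to the TSS of Vps39 at 22 bp. eIF2Bgamma, a subunit gene of the exchange factor eIF2B, stood at rank 14847 (signal 44.8, 11 bp upstream) and was found in replicates 1 and 2 at ranks 26494 and 9095 but not in replicate 3. eIF4E1, the main cap-binding protein gene, stood at rank 19294 (signal 36.1, 54 bp upstream), with ranks of 15381 and 11349 in replicates 2 and 3 and no promoter region in replicate 1. eIF2Bdelta was lowest at rank 27369 (signal 27.2, 117 bp upstream), nearest to the TSS of roh at 27 bp.

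Some members had regions in replicates that overlapped no pooled region. An intronic region of eIF4G2, a scaffold gene, ranked 3243, 2923 and 2975 in replicates 1, 2 and 3, and its summits lay 1045, 1051 and 1055 bp from the nearest TSS. The replicates thus placed it at nearly the same base and height. An intronic region of eIF1A ranked 4282, 8246 and 4376. In eIF3d1, a subunit gene of eIF3, the promoter region ranked 20485, 9650 and 10925, outside the highest 5246 of each replicate. eIF3a, a core subunit of eIF3, ranked 2382 in replicate 3, with a summit 33 bp upstream, and eIF3c and eIF3m ranked 3816 and 3893 there, and none of the 3 had a region in the other replicates.

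The absence from the pooled list was measured over all genes. Of the highest promoter regions, no pooled region overlapped 112 of 2078 (5.39%), 113 of 2046 (5.52%) and 164 of 2141 (7.66%) in replicates 1, 2 and 3. Elsewhere the shares were 1.33%, 1.12% and 1.32%. Among regions in the highest 5246 of all 3 replicates, 30 of 3514 (0.854%) overlapped none, and the eIF4G2 region is 1 of these. What leaves a region out of the pooled list was not tested.

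**Figure D3:**
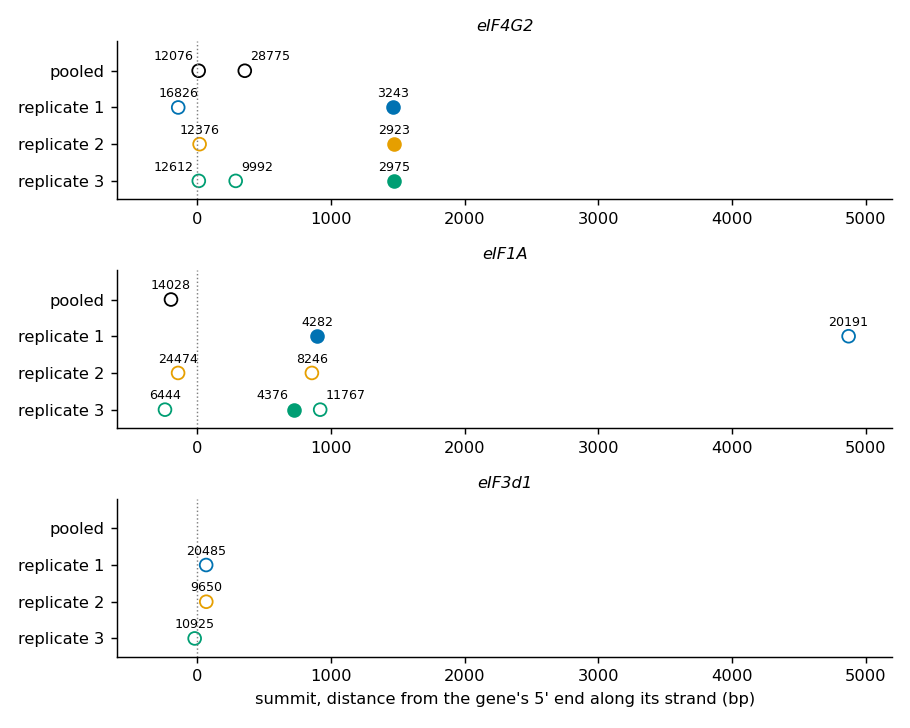
Summits of the pooled list and the 3 replicate lists (y axis) at eIF4G2, eIF1A and eIF3d1, by distance from the 5′ end of the gene along its strand (x axis, bp). Numbers are ranks, and filled circles are within the highest 5246; the intronic eIF4G2 and eIF1A regions and the eIF3d1 promoter region appear in each replicate and have no pooled partner.

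Of the 18 genes with no region in any list, 10 encode eIF3 subunits or their paralogs: eIF3b, eIF3d2, eIF3e, eIF3f1, eIF3g1, eIF3g2, eIF3i, eIF3j, eIF3k and eIF3l. The others were eIF2gamma, eIF2Balpha, eIF2Bepsilon, eIF4B, eIF4G1 and the cap-binding paralogs eIF4E3, eIF4E5 and eIF4E6. With 16 genes eIF3 is the largest family, and 62.5% of it had no region, against 38.3% of all protein-coding genes. This difference was not tested. Promoter regions of eIF2Bbeta, eIF2alpha, eIF3f2, eIF4E4 and eIF5 were found in a single replicate each, the highest at ranks 12860, 17277, 24696, 25577 and 9708, and eIF2alpha also had a gene body region at rank 26943 in replicate 1. A list of ranked regions shows no level below its lowest region, so absence from it is not a measurement of no binding.

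The window also decides what counts as a gene's own region. The TSS of eIF2Bbeta, the beta subunit gene of eIF2B, lies 686 bp from the summit with the highest signal of the list, 3148 at rank 1 in the pooled list and in each replicate. That summit is 33 bp from the TSS of Ugalt and was not counted for eIF2Bbeta. The eIF2Bdelta TSS lies 743 bp from an optimal summit at rank 4024 with signal 126, nearest to CG30414, which ranked 16206, 3865 and 3492 in replicates 1, 2 and 3.

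In gene bodies, 2 of 44 genes (4.55%) had an optimal summit, eIF4EHP and eIF5B, against 8.51% of all protein-coding genes. In the pooled list 6 genes (13.6%) had one, against 21.1% of all. The median length of the initiation factor genes was 1.97 kb, against 2.16 kb over all protein-coding genes, and eIF4EHP and eIF5B were long, at 45.9 and 32.3 kb. Besides eIF4EHP and eIF5B, the pooled body summits were at eIF4A, eIF4H1, eIF4H2 and eIF4E7, at ranks 23387, 25280, 21435 and 28206, all near the foot of the list. eIF4H2 and eIF4E7 had theirs in a coding exon and no promoter region in any list.

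Both optimal body summits of eIF4EHP were intronic, at rank 1470 (signal 246, 9780 bp from the TSS) and rank 2719 (signal 165, 2493 bp). The first ranked 1407, 1553 and 1738 in the replicates and the other 18804, 3960 and 1572. The syntaxin gene Syx1A lies inside eIF4EHP and had the nearest TSS to both summits.

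eIF5B holds no other gene, and its optimal body summits, also intronic, were at rank 2289 (signal 185, 27740 bp from the TSS) and rank 4305 (signal 119, 18299 bp). The first ranked 2369, 4007 and 1862 and the other 6784, 2627 and 14980, so the first was within the highest 5246 of each replicate. A gene outside eIF5B, sty, had the nearest TSS to both summits, at 7928 and 17369 bp. The pooled list had 19 body summits in eIF4EHP (4.14 per 10 kb) and 17 in eIF5B (5.26 per 10 kb). For 358 protein-coding genes of 30 to 50 kb the median was 8 (range 0 to 41; 2.11 per 10 kb). None of the 19 was nearest to the TSS of eIF4EHP, and 6 of the 17 were nearest to a TSS of eIF5B.

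**Figure D4:**
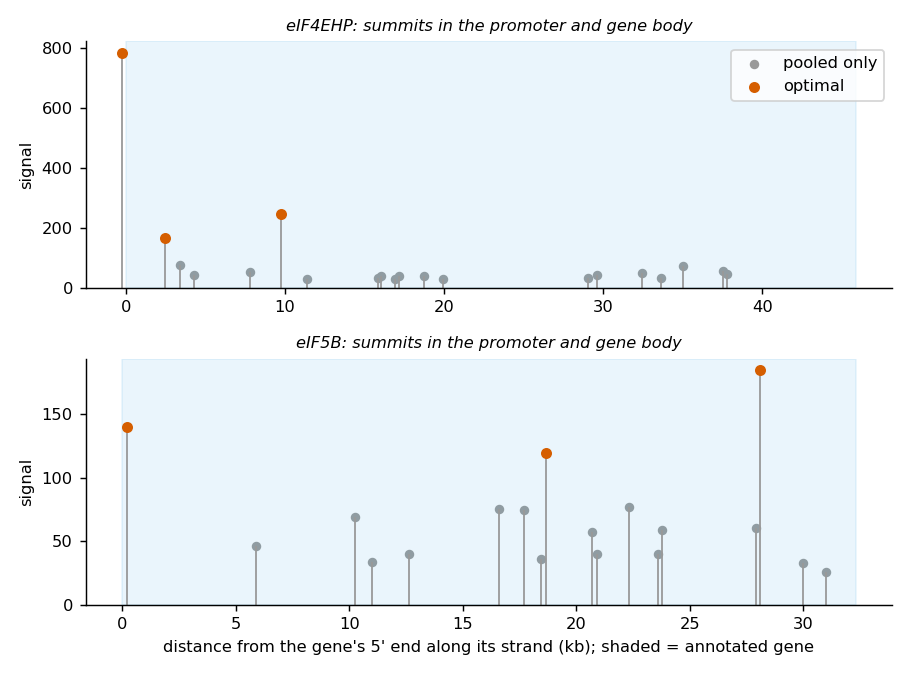
Signal of each pooled summit (y axis) in the promoter and body of eIF4EHP and eIF5B by distance from the 5′ end of the gene (x axis, kb), with optimal summits in orange and the annotated gene shaded. The eIF4EHP promoter summit (783) is higher than any in its body (246), whereas the highest eIF5B summit (185) lies near its 3′ end and not at the promoter (140).

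The letters around the summits were counted within 50 bp on either side. The 8 optimal promoter summits of these genes were 56.8% ± 11.4 A or T (SD, n = 8 summits), and all 1851 optimal promoter summits were 62.7% ± 11.2 (SD). The range among the 8 was 45.5% at eIF4A to 80.2% at eIF4EHP, and the difference between the means was not tested. TATAAA was at 2 of the 8 summits, eIF4EHP and eIF6, against 18.3% of all 1851. CACACAC or its reverse complement was at 2, eIF2A and eIF3h, against 3.46%. The DNA replication-related element TATCGATA (DRE), a core promoter sequence of housekeeping genes bound by DREF in flies, was at 1, eIF2A, against 1.89%.

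In whole promoters, from 250 bases before to 50 after the 5′ end of each gene on both strands, the DRE was in 12 of 44 genes (27.3%), in 9.36% of 13968 protein-coding promoters and in 31.8% of ribosomal protein promoters. Of the 12 genes, 10 (83.3%) had no optimal promoter summit, near the 84.1% of the 44 genes and the 83.1% of all 1307 protein-coding genes with a DRE that had none. The next 3 stretches of 48 bases show the element, in capitals, where the region over it differed. They are dm6 sequence from RefSeq on the strand of the gene, 5′ to 3′, at chr2L:5981692-5981739 (plus) for eIF4A, chr3R:18274443-18274490 (plus) for eIF1A and chr3R:15263508-15263555 (minus) for eIF2gamma.
eIF4A: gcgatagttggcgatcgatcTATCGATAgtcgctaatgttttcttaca
eIF1A: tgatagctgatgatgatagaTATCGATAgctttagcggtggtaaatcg
eIF2gamma: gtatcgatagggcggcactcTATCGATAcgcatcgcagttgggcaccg
Over the eIF4A element lay the pooled region at rank 12177, and over that of eIF1A the one at rank 14028. The summit of the latter was nearest to the TSS of Vps39, at 22 bp. The strongest region over an element was that of eIF6, at rank 52 in the pooled list and 59, 56 and 49 in replicates 1, 2 and 3. The elements of eIF3a and eIF3c lay under regions of replicate 3 alone, at ranks 2382 and 3816, that of eIF2alpha under 1 at rank 17277 there, and that of eIF2Bbeta under 1 at rank 12860 in replicate 2. The DRE at the eIF2A summit lies outside the promoter searched, so eIF2A is not among the 12. eIF2gamma, which encodes the GTP-binding subunit of eIF2, had 3 matches, another of them in the lower-case letters of its stretch, and no region in any list. The DRE genes eIF3f1, eIF3l, eIF4B and eIF4E6 likewise had no region in any list. A match is only a match of letters, and occupancy by DREF was not measured.

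The other motifs were searched in the same promoters, and no share was tested. TATAAA was in 20 of 44 (45.5%) against 45.8%, and TAATTA, a core of homeodomain sites, in 13 (29.5%) against 20.4%. AAAAAAA was in 13 (29.5%) against 26.7%, CACGTG, an E-box that Myc can bind, in 3 (6.82%) against 4.2%, and CACACAC and GAGAGAG in 1 each (2.27%) against 6.91% and 5.86%. CTTTT within 5 bp of the start on the gene strand, the letters of the pyrimidine initiator of ribosomal protein genes, was in 3 genes (6.82%: eIF4A, eIF3f1 and eIF3i), in 1.93% of all and in 14.8% of ribosomal protein genes.

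**Figure D5:**
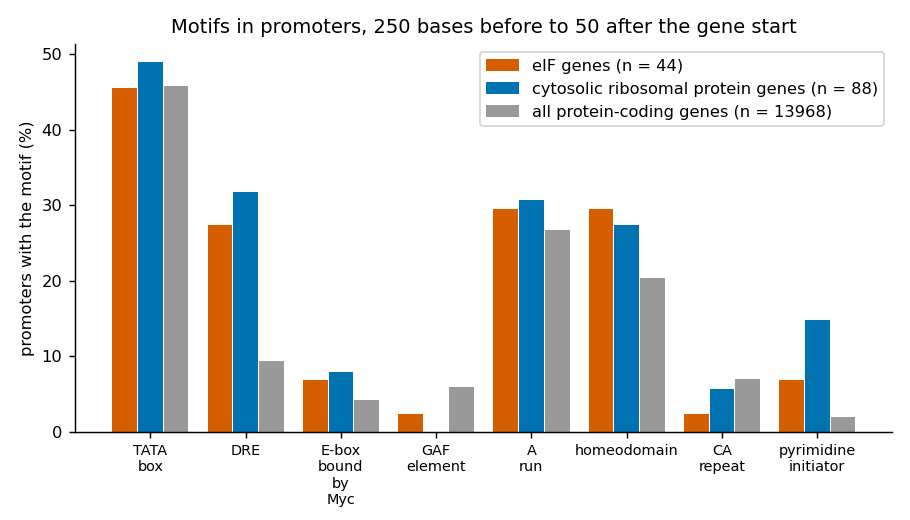
Share of promoters (y axis, %) that hold each motif (x axis) for the 44 initiation factor genes, 88 cytosolic ribosomal protein genes and 13968 protein-coding promoters. The DRE bar is 27.3% for initiation factor genes against 9.36% for all genes. The bars labelled TATA box count TATAAA on either strand anywhere in the promoter and are alike (45.5% and 45.8%).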

How the data were processed

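ChIP-seq regions of 3 biological replicates were read from the dm6 peak lists that the authors deposited; lists in dm3 were not used. Per the labels and the accompanying description, each list was made from alignments and a control, a pooled list from all replicates, and an optimal list by IDR. Region signal was used as the authors deposited it, with no formula given, and only ranks were compared between lists. Peak caller, aligner and read number: not given in the sources used here. Chromatin was sheared to 200 to 800 bp, per the labels.

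Summits were assigned to genes of Ensembl release 115 with Python 3.11.15, pandas 2.3.3 and numpy 2.4.6, and figures were drawn with matplotlib 3.10.9. Regions outside the chromosomes numbered 0. The genome sequence was RefSeq dm6. A motif match counted on both strands, except CTTTT.

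Members, gene lists and role groups were chosen with earlier results of these data known. Each member with an optimal summit is named with its values, other members by class, and from the other translation genes each with an optimal promoter summit. The printed stretches were chosen after their values were seen. Of 28 entries of the other translation list, 27 matched the symbol of a protein-coding gene in the annotation exactly. The entry Tor did not, and other symbols for it were not searched. Alternatives were other windows, nearest TSS only, gene 5′ ends only, stricter regions, overlap of at least 50% and each replicate left out.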

Additional observations from a re-analysis of the deposited data

How the results depend on the processing

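The count of 7 genes with an optimal promoter summit fell to 3 in the upper part of the optimal list by signal (eIF3h, eIF4EHP and eIF6; 8.79% of all protein-coding genes), and to 4 where a region had to overlap by 50% in every replicate (8.29% of all). Leaving out each replicate gave 4 to 6, and eIF3h, eIF4A, eIF4EHP and eIF6 were in each. The mean of 7.33 genes per replicate fell to 3.33 when fewer regions of each replicate were taken as highest (2623 in place of 5246), while the share of all protein-coding genes fell from 15.7% to 9.07%. In each case the stricter rule keeps fewer regions. The rank of eIF3h moved from 894 to 2135 with a window of 250 bp, which leaves out its intronic summit, and eIF2beta had no optimal summit in that window. The other windows and TSS rules gave 5 to 9 optimal and 11 to 19 pooled genes. The shares of all protein-coding genes were 11.4% to 18.2% and 28.9% to 42.2%. With the nearest TSS only, the 5 optimal genes were eIF2A, eIF2beta, eIF3h, eIF4A and eIF5B (11.8% of all). That rule left out eIF6 and eIF4EHP, the members with the highest signals. The count of 2 genes with an optimal body summit was the same in the 5 alternatives run. No paired analysis was possible because there is a single group. Depth is unknown, and lists end at a fixed number of regions, so low binding cannot be read.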
